A study of Mus musculus with 2 samples.

Results

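MHC class I presentation genes were followed in single cells of mouse omental tumors, as 9 genes taken by symbol from the 32285 genes of the deposited matrices: H2-K1, H2-D1, B2m, Tap1, Tap2, Tapbp, Psmb8, Psmb9 and Nlrc5. All 9 were listed and all 9 had UMIs in cancer barcodes of both libraries. The tumors came from female C57BL/6J mice, 12 to 16 weeks old, that had been injected into the peritoneum with cells of the KPCA line, a mouse ovarian cancer line made from fallopian tube epithelium that carries mutant P53 and overexpresses CCNE1 and AKT2. In KPCA.FSTKO cells the gene of follistatin, Fst, was deleted. KPCA.FSTKO_hFSTL3 cells were derived from KPCA.FSTKO, so they lack Fst too, and carry a human FSTL3 plasmid as 1 stable clone picked for FSTL3 secretion under geneticin. Tumors were taken 10 days after the graft, 4 tumors of each genotype were pooled before dissociation, and 1 library of each genotype was made, with no replicate and no tumor without an Fst deletion.

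Class I molecules show peptides from inside the cell to CD8 T cells. H2-K1 and H2-D1 encode the heavy chains and B2m the light chain, beta-2-microglobulin. Psmb8 and Psmb9 are catalytic subunits of the immunoproteasome, which cuts proteins into peptides, Tap1 and Tap2 form the pump that carries peptides into the endoplasmic reticulum, and Tapbp encodes tapasin, which holds empty class I molecules at that pump. Nlrc5 is a transactivator that acts at the promoters of most of the others, and interferons raise the whole set in many cell types.

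The promoters are shown because the results turn on which of the 9 genes vary together. In GRCm38, H2-K1 (ENSMUSG00000061232, chromosome 17, 33996017 to 34000347, minus strand), Tapbp (33915899 to 33929292, plus), Psmb9 (34181987 to 34187764, minus), Tap1 (34187553 to 34197225, plus), Psmb8 (34197721 to 34201454, plus), Tap2 (34203527 to 34216321, plus) and H2-D1 (ENSMUSG00000073411, 35262730 to 35267499, plus) all lie in the MHC on chromosome 17, in GENCODE coordinates. B2m (ENSMUSG00000060802) lies on chromosome 2 at 122147686 to 122153083 and Nlrc5 (ENSMUSG00000074151) on chromosome 8 at 94434356 to 94527272, both on the plus strand. RefSeq promoter windows of build GRCm38.p6 were matched by symbol for 7 of the 9 genes, and those of Tap2 and Nlrc5 were not. RefSeq starts differ from the ends of some GENCODE genes. The windows of H2-D1, Psmb8 and Tapbp lie within their GENCODE genes. The Tap1 and Psmb9 stretch lies within GENCODE Psmb9, which overlaps Tap1. Motifs there are thus given for the RefSeq starts alone. The 250 bases before the RefSeq start are printed for H2-K1 (chr17:34000348-34000597, minus strand), H2-D1 (chr17:35262844-35263093, plus), B2m (chr2:122147437-122147686, plus) and Tapbp (chr17:33919228-33919477, plus). The RefSeq starts of Tap1 and Psmb9 face away from each other, and the 225 bases between them (chr17:34187331-34187555) are printed on the Tap1 strand. Capitals mark 4 motifs on either strand, the kappa B core GGGATTCCC, the interferon regulatory factor core AANNGAAA, TGACG of the X2 box and CCAAT.
H2-K1: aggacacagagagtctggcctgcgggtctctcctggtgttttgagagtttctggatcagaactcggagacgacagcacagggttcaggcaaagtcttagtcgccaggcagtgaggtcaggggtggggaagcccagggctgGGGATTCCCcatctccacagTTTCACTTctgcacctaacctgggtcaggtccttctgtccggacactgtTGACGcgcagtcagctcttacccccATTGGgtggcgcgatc
H2-D1: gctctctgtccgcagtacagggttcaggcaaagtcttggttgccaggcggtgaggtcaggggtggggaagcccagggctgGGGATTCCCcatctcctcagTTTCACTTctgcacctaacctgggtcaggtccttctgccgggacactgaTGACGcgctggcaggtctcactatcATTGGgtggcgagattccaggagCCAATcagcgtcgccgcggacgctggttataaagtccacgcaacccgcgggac
B2m: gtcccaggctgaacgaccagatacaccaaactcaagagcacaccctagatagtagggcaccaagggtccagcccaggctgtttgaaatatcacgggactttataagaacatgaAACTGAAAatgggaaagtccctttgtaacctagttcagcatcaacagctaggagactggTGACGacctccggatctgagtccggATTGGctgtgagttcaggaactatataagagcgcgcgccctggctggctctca
Tap1-Psmb9: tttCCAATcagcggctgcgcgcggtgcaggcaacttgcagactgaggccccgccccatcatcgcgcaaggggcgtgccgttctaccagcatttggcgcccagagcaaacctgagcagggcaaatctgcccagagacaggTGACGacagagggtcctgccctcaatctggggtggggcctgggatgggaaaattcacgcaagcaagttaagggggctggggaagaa
Tapbp: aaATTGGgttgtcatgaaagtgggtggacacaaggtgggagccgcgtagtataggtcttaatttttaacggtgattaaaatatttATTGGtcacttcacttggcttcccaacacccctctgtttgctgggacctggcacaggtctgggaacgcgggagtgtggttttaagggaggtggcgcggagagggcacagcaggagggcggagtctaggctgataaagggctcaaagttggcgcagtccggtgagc

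H2-K1 and H2-D1 held all 4 motifs in the same order, B2m held all but the kappa B core, the shared Tap1 and Psmb9 stretch held TGACG and CCAAT, and Tapbp held CCAAT alone, 2 times. The Psmb8 window (chr17:34197945-34198194) held none of the 4, and like that of Tapbp it lies within the GENCODE gene. Of 32851 windows of 250 bases before a start, 0.301% held the kappa B core, 21.3% the interferon regulatory factor core, 17.8% TGACG and 33.9% CCAAT. A match, or the lack of one, is a description of these letters and not of the promoter in use.

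The KPCA.FSTKO library held 168214773 UMIs over 7582 barcodes and the KPCA.FSTKO_hFSTL3 library 80391504 over 4244, where a UMI counts 1 captured transcript. With a mitochondrial share under 20%, more than 200 and fewer than 8000 genes, 6777 and 4041 barcodes stayed, and 12 barcode sequences occurred in both libraries. Barcodes were put into classes by marker genes that include none of the 9. In KPCA.FSTKO this gave 3234 cancer, 813 macrophage, 284 stromal, 77 T and NK, 73 endothelial, 70 erythroid and 59 neutrophil barcodes, with 2099 in no class. In KPCA.FSTKO_hFSTL3 it gave 181 cancer, 119 macrophage and 46 stromal barcodes, and 91.0% of barcodes stayed in no class. Those 3676 barcodes had a median mitochondrial share of 11.3% and held markers of several cells at once, with medians per 10000 UMIs of 32.9 cancer, 37.1 macrophage and 92.8 pancreatic acinar marker UMIs.

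Levels are UMIs of a gene scaled to a class total of 1000000 UMIs (CPM). Fst, the deleted gene, was still counted in cancer barcodes at 5.21 CPM (KPCA.FSTKO) and 7.10 CPM (KPCA.FSTKO_hFSTL3), and 3-prime counts do not show whether the deleted stretch is present. Cancer barcodes held the keratin gene Krt8 at 866 and 1235 CPM and Hmga2 at 1779 and 1688, in the same order of libraries. The epithelial gene Epcam was at 6.04 and 0 CPM, so that marker was near or at 0. Macrophage barcodes held C1qa at 3466 and 3149 CPM. Krt8, Hmga2 and C1qa are among the markers that set the classes, so their levels there follow from the gates. Epcam is not among them. Human FSTL3 was not analysed here.

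The 95% intervals (exact Poisson for levels, conditional binomial for ratios, Clopper-Pearson for shares) cover counting error only, not differences between tumors. Those for levels and ratios also leave out the spread between barcodes. The variance over mean of H2-K1 over thinned KPCA.FSTKO cancer barcodes was 7.48, where Poisson counts give 1. These intervals are thus too narrow for differences between cells, also where they do not meet. Levels of different genes are not compared with each other. H2-K1, H2-D1 and the H2-Q and H2-T genes are near-identical in long stretches, so how the counting split their reads is uncertain.

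In KPCA.FSTKO all 9 genes were lower in cancer than in macrophage barcodes, by 2.14 to 5.38 times, and of the 7 classes with 50 or more barcodes T and NK held the highest level of each. Erythroid barcodes, in which haemoglobin took 81.7% of UMIs, held the lowest of those levels for 6 of the 9, and cancer barcodes were lowest for Tap1, Tap2 and Psmb9 with intervals that overlapped those of the erythroid barcodes. Of 13240 genes with at least 100 UMIs, 16.3% were at least 2-fold lower in cancer than in macrophage barcodes, against 9 of 9 here, and the median log2 ratio was -1.64 for the 9 genes and 0.40 for all.

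H2-K1 stood at 243 CPM (240 to 246) in cancer, 532 (513 to 552) in stromal, 517 (465 to 573) in endothelial, 754 (738 to 771) in macrophage and 1281 (1180 to 1387) in T and NK barcodes of KPCA.FSTKO. H2-D1 stood at 381 (377 to 385), 518 (500 to 538), 743 (681 to 810), 1014 (995 to 1033) and 1099 (1007 to 1199) CPM in the same order. B2m stood at 471 (466 to 475), 914 (888 to 939), 971 (900 to 1047), 1423 (1401 to 1446) and 1615 (1502 to 1734). For the heavy and light chains, cancer barcodes were thus below each of these host classes and no interval of theirs met one of a host class. Stromal and endothelial barcodes did not differ beyond counting error in H2-K1 and B2m, nor did macrophage and T and NK barcodes in H2-D1.

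Tap1 stood at 11.5 CPM (10.9 to 12.2) in cancer, 29.6 (25.2 to 34.5) in stromal, 36.8 (24.05 to 53.9) in endothelial, 37.2 on 405 UMIs in macrophage and 76.7 (53.7 to 106) in T and NK barcodes. Tap2 stood at 12.3 (11.6 to 13.0), 19.3 (15.8 to 23.3), 36.8 (24.05 to 53.9), 26.3 (23.3 to 29.5) and 81.0 (57.3 to 111). Tapbp stood at 45.9 (44.6 to 47.3), 70.5 (63.6 to 77.9), 55.2 (39.3 to 75.5), 107 (101 to 113) and 115 (86.4 to 150), so tapasin did not differ beyond counting error between cancer and endothelial barcodes.

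Psmb8 stood at 63.0 CPM (61.5 to 64.7) in cancer, 119 (110 to 129) in stromal, 80.7 (61.1 to 105) in endothelial, 217 (208 to 226) in macrophage and 507 (445 to 576) in T and NK barcodes. Psmb8 did not differ beyond counting error between cancer and endothelial barcodes. Psmb9 stood at 11.4 (10.7 to 12.1), 24.97 (20.9 to 29.5), 25.5 (15.1 to 40.3), 61.1 (56.5 to 65.9) and 156 (122 to 196). Nlrc5 stood at 4.78 (4.35 to 5.24), 4.41 (2.82 to 6.56), 18.4 (9.80 to 31.5), 20.8 (18.2 to 23.7) and 109 (80.9 to 143), and it was the 1 gene of the 9 that was not lower in cancer than in stromal barcodes. Nlrc5 was 22.7-fold (16.7 to 30.4), Psmb9 13.7-fold (10.6 to 17.4) and H2-D1 2.89-fold (2.64 to 3.15) lower in cancer than in T and NK barcodes.

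**Figure D1:**
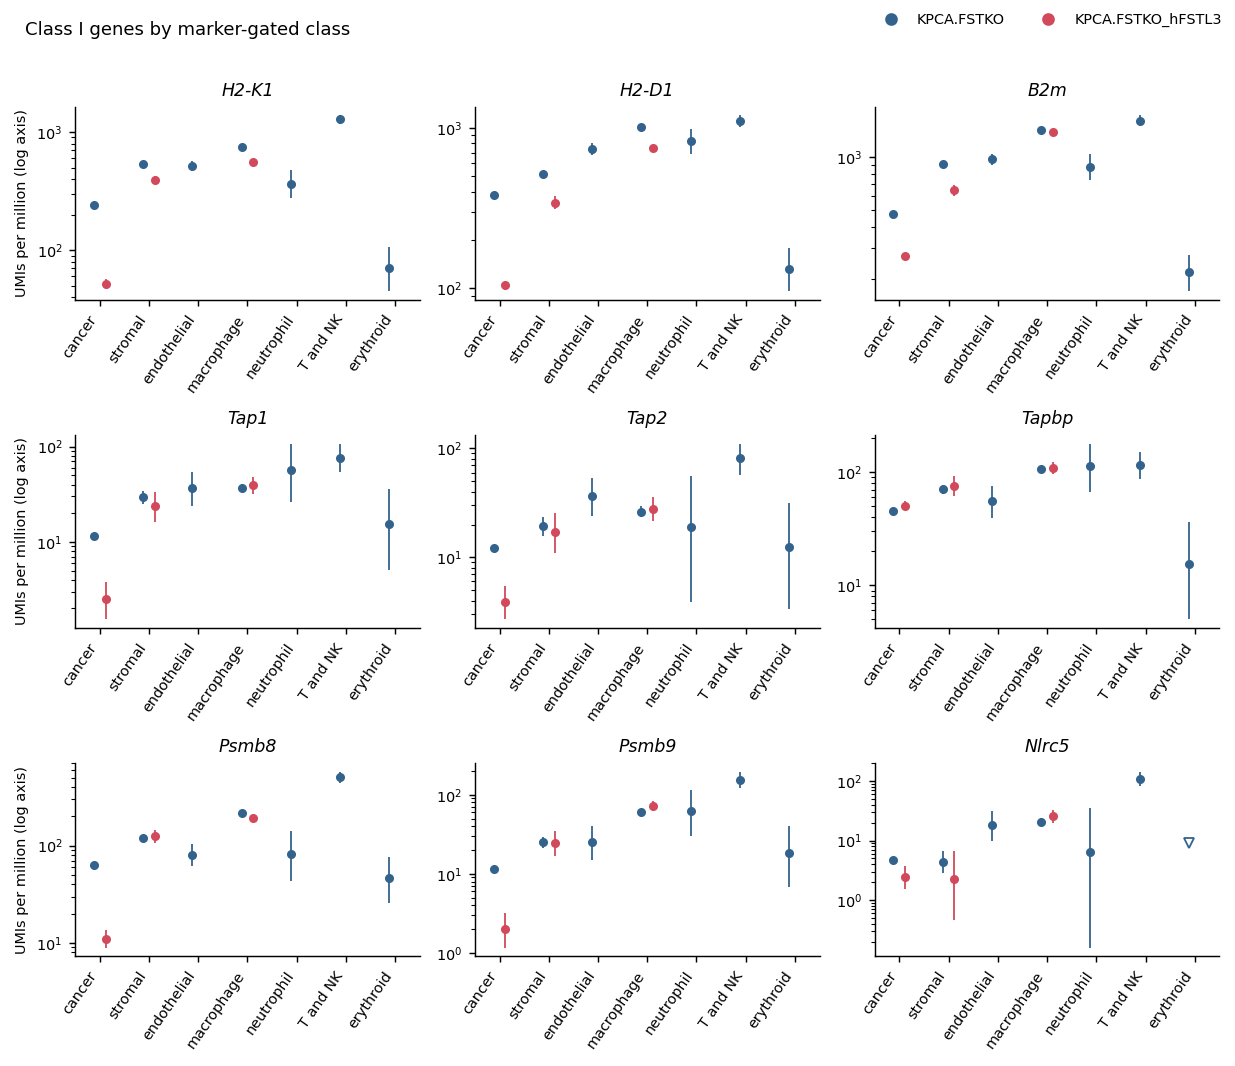
Level in CPM of each class I gene on a log axis in 7 marker-gated classes, for KPCA.FSTKO (blue) and, in its 3 classes of 46 or more barcodes, KPCA.FSTKO_hFSTL3 (red). Bars are 95% Poisson intervals, the open triangle marks a count of 0 at its limit of 3 counts, and the red cancer points lie below the blue ones for every gene but Tapbp.

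At least 2-fold lower in cancer were 9 of 9 genes against T and NK barcodes (18.9% of all genes tested), 6 of 9 against endothelial barcodes (17.6%), 4 of 9 against neutrophils (16.8%) and 3 of 9 against stromal barcodes (14.4%). The 3 against stromal barcodes were H2-K1, Tap1 and Psmb9. The 3 that missed the 2-fold size against endothelial barcodes were H2-D1, Tapbp and Psmb8, of which H2-D1 was 1.95-fold lower (1.79 to 2.13). Neutrophil barcodes had a median of 2620 UMIs, and their Nlrc5 level rested on 1 UMI.

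Defining leukocyte genes were near 0 in cancer barcodes. The genes C1qa, C1qb, C1qc, Lyz2, Tyrobp, Fcer1g and Ptprc held 0.202% to 0.325% of their macrophage level there (KPCA.FSTKO), and 0.256% to 0.447% for KPCA.FSTKO_hFSTL3. The 9 class I genes held 18.6% to 46.8% and 2.76% to 46.6%. The lowest of them, Psmb9 in KPCA.FSTKO_hFSTL3, was above every one of these leukocyte genes on this scale. Other classes held more Psmb9 than macrophages (156 CPM in T and NK against 61.1 in KPCA.FSTKO). Thus the macrophage scale sets no limit on RNA from those classes, which was not tested. In the 1008 KPCA.FSTKO cancer barcodes with no UMI of those 7 genes, 9 of 9 class I genes were again at least 2-fold lower than in macrophages.

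In KPCA.FSTKO_hFSTL3 the gap between cancer and macrophage barcodes was wider for 8 of the 9 genes, and the share of all genes with a wider gap was not computed. The 8 genes with at least 100 UMIs there were all at least 2-fold lower in cancer barcodes, against 17.6% of 8954 genes, with a median log2 ratio of -3.15. Nlrc5 had 21 UMIs in cancer and 62 in macrophage barcodes, too few for the count. Against the 46 stromal barcodes, 4 of the 5 genes with enough UMIs (H2-K1, H2-D1, B2m and Psmb8) were at least 2-fold lower, against 11.6% of all genes, and the fifth, Tapbp, was 1.505-fold lower (1.20 to 1.87).

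Between the libraries, cancer barcodes of KPCA.FSTKO_hFSTL3 held less of the heavy chains, the peptide pump and the immunoproteasome subunits, while tapasin did not differ beyond counting error. Of the 9 genes 6 were at least 2-fold lower in KPCA.FSTKO_hFSTL3, against 6.69% of 12752 genes, and 0 were at least 2-fold higher, against 3% of all genes. The median log2 ratio was -1.87 for the 9 genes and 0.01 for all. These are 1 pool and 1 clone on each side, so genotype, clone and library cannot be told apart. Cancer barcodes were 4.48% of the KPCA.FSTKO_hFSTL3 barcodes and 47.7% of those of KPCA.FSTKO. Of Krt8, KPCA.FSTKO_hFSTL3 held 50237 UMIs in barcodes of no class and 10440 in cancer barcodes, where KPCA.FSTKO held 10359 and 82770. The ratios thus describe the gated barcodes, and whether they hold for cancer cells outside the gate was not tested.

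With KPCA.FSTKO cancer barcodes given first and KPCA.FSTKO_hFSTL3 second, H2-K1 stood at 243 and 51.5 CPM (46.7 to 56.5), with the log2 ratio at -2.24 (-2.38 to -2.10). H2-D1 stood at 381 and 104 (97.3 to 111) CPM, with the log2 ratio at -1.87 (-1.97 to -1.77). B2m stood at 471 and 271 (260 to 283) CPM, with the log2 ratio at -0.79 (-0.86 to -0.73). Both heavy chains were thus lower by a larger factor than the light chain they pair with, and their intervals did not meet that of B2m.

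Psmb8 stood at 63.0 and 11.1 CPM (8.99 to 13.6), with the log2 ratio at -2.50 (-2.81 to -2.21). Psmb9, on 17 UMIs in KPCA.FSTKO_hFSTL3, stood at 11.4 and 2.01 CPM (1.17 to 3.22), with the log2 ratio at -2.50 (-3.28 to -1.81). Tap1, on 21 UMIs, stood at 11.5 and 2.48 CPM (1.54 to 3.80), with the log2 ratio at -2.22 (-2.91 to -1.60). The immunoproteasome subunits, H2-K1 and Tap1 had the lowest ratios of the set.

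Tap2, on 33 UMIs, stood at 12.3 and 3.90 CPM (2.69 to 5.48), with the log2 ratio at -1.65 (-2.20 to -1.16). Nlrc5, on 21 UMIs, stood at 4.78 and 2.48 CPM (1.54 to 3.80), with the log2 ratio at -0.94 (-1.65 to -0.31). Tapbp stood at 45.9 and 50.6 CPM (46.0 to 55.7), with the log2 ratio at 0.14 (-0.01 to 0.28) that turned to -0.03 with TMM scaling, a scaling over all genes. Nlrc5 lay close to the 2-fold size and passed it at -1.11 with TMM scaling, and the interval of Tapbp held 0.

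In macrophage and stromal barcodes, the host classes compared, the same genes lay within 2-fold. In macrophage barcodes 0 of the 9 genes were at least 2-fold lower in KPCA.FSTKO_hFSTL3, against 1.74% of 8635 genes, and in stromal barcodes 0 of 8 genes with enough UMIs, against 2.4% of 7510 genes. H2-K1 stood at 754 and 561 CPM in macrophages (log2 ratio -0.43, -0.51 to -0.34) and at 532 and 393 in stromal barcodes (-0.44, -0.58 to -0.30). Psmb8 stood at 217 and 193 CPM in macrophages (-0.17, -0.32 to -0.03) and at 119 and 125 in stromal barcodes (0.07, -0.19 to 0.31). For H2-K1, H2-D1, Tap1, Tap2, Psmb8 and Psmb9 the interval in cancer barcodes lay below those in both host classes, and nearest for Tap1, which reached -1.60 in cancer and started at -0.90 in stromal barcodes, and Tap2, at -1.16 and -0.89. B2m in stromal barcodes (-0.50, -0.61 to -0.40) came nearer to its cancer value than in macrophages (-0.04, -0.09 to 0.02). Other host classes had 8 or fewer barcodes in KPCA.FSTKO_hFSTL3, and some levels there went beyond 2-fold, in either direction. Endothelial H2-K1 stood at 517 and 218 CPM (148 to 309), and T and NK Psmb9 at 156 and 485 (327 to 692).

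**Figure D2:**
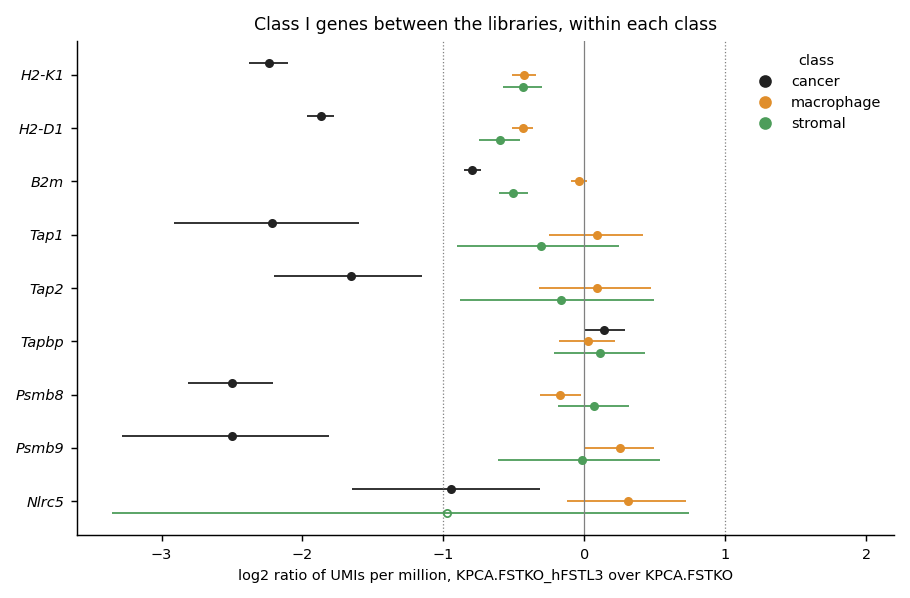
Log2 ratio of CPM, KPCA.FSTKO_hFSTL3 over KPCA.FSTKO, for each gene in cancer (black), macrophage (orange) and stromal (green) barcodes, with 95% counting intervals, an open point where under 100 UMIs were counted and dotted lines at 2-fold. Cancer points of H2-K1, H2-D1, Tap1, Tap2, Psmb8 and Psmb9 lie left of the lower dotted line, and every filled host point lies between the lines.

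Cancer barcodes of KPCA.FSTKO_hFSTL3 were deeper, with a median of 47340 UMIs against 28341, at median mitochondrial shares of 3.43% and 3.50%. With barcodes of 30000 UMIs or more alone, 1492 and 139 barcodes, the same 6 genes were at least 2-fold lower. The cycling genes Mki67 (log2 ratio 0.10, -0.01 to 0.22), Top2a (-0.15), Ccnb1 (-0.06) and Cdk1 (0.28) were all within 2-fold. Acinar RNA was higher in KPCA.FSTKO_hFSTL3 cancer barcodes, with medians of 0.204 and 3.32 acinar marker UMIs per 10000, and with acinar genes left out of the totals the count stayed at 6.

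Genes near the class I set in function were compared in the same cancer barcodes, where 6.69% of all genes were at least 2-fold lower and 3% at least 2-fold higher in KPCA.FSTKO_hFSTL3. In lists this short a count of 0 is near those shares and is no result about the list. The constitutive proteasome subunits Psmb5, Psmb6 and Psmb7, which Psmb8, Psmb9 and Psmb10 replace in the immunoproteasome, had log2 ratios of 0.46, 0.00 and 0.02, with 0 of 3 at the 2-fold size. The third immunoproteasome subunit Psmb10 stood at -0.48 (-0.67 to -0.30) and the proteasome activator genes Psme1 and Psme2 at 0.16 and 0.23, so 0 of 3 of that list passed. Of the peptide loading and trimming genes 0 of 5 passed, among them the chaperones Canx (0.06) and Calr (-0.39), the tapasin partner Pdia3 (0.24) and the trimming peptidase Erap1 (0.66).

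Of 13 interferon signalling genes 0 passed the 2-fold size in either direction, with a median log2 ratio of -0.11, which is also near the 6.69% lower and 3% higher of all genes. The transcription factor gene Irf1 stood at 0.03 (-0.13 to 0.19), Ifngr1 at 0.16 and Jak2 at -0.27. Of 16 interferon-induced genes with enough UMIs 3 were at least 2-fold lower, which were Rsad2 (-2.45, -5.52 to -0.57, on 2 UMIs), Iigp1 (-1.16, -1.51 to -0.84) and Cd274, which encodes PD-L1 (-1.58, -2.91 to -0.52). The ubiquitin-like Isg15 was at least 2-fold higher, at 1.09 (0.77 to 1.39), and the median of the 16 was -0.43.

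Of 15 other class I heavy chains 5 had enough UMIs and 2 were at least 2-fold lower, against 6.69% of all genes. These were H2-M3 (-1.52, -1.99 to -1.09) and H2-Q4 (-3.75, -6.03 to -2.19, on 3 UMIs in KPCA.FSTKO_hFSTL3), while H2-T22 stood at -0.69, H2-T23 at -0.44 and Mr1 at -0.94. The class II genes, which present peptides to CD4 T cells, were 7 of 7 at least 2-fold lower in cancer than in macrophage barcodes of KPCA.FSTKO, against 16.3% of all genes. Against endothelial barcodes 0 of 6 were at least 2-fold lower and 3 at least 2-fold higher in cancer, H2-DMa, H2-DMb1 and Cd74. The share of all genes higher there was not computed. Between the libraries 2 of 6 class II genes were at least 2-fold lower in cancer barcodes, against 6.69% of all genes. They were H2-Ab1 (-1.57) and H2-DMb1 (-2.28), with 15 and 17 UMIs in KPCA.FSTKO_hFSTL3. The class II gene Cd74 stood there at 7.10 CPM and at 11.5 in KPCA.FSTKO.

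**Figure D3:**
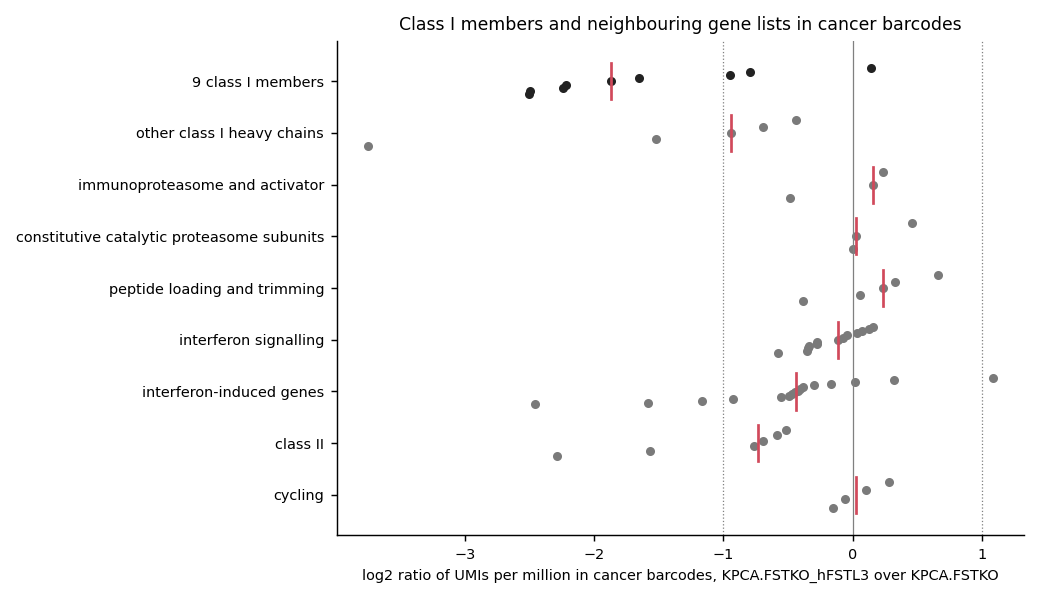
Log2 ratio of CPM in cancer barcodes, KPCA.FSTKO_hFSTL3 over KPCA.FSTKO, for each gene with at least 100 UMIs in 9 lists, 1 point a gene with the list's median as a red line and dotted lines at 2-fold. The median is -1.87 for the 9 class I genes and between -0.94 and 0.24 for the other lists.

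Class I UMIs were spread unevenly over the cancer barcodes of KPCA.FSTKO. To set barcodes of unequal depth side by side, each was thinned at random to 10000 UMIs, which left out 547 of 3234 and 8 of 181 barcodes below that depth. In the 2687 KPCA.FSTKO barcodes the 9 genes summed had a lowest value of 0, a median of 8 and a highest of 159 UMIs, and the tenth of barcodes with most of them held 36.8% of these UMIs. In the 173 KPCA.FSTKO_hFSTL3 barcodes the lowest was 0, the median 4 and the highest 35. The 2 distributions overlapped, with 28.7% of KPCA.FSTKO barcodes at or below the KPCA.FSTKO_hFSTL3 median and 21.4% of KPCA.FSTKO_hFSTL3 barcodes at or above the KPCA.FSTKO median.

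**Figure D4:**
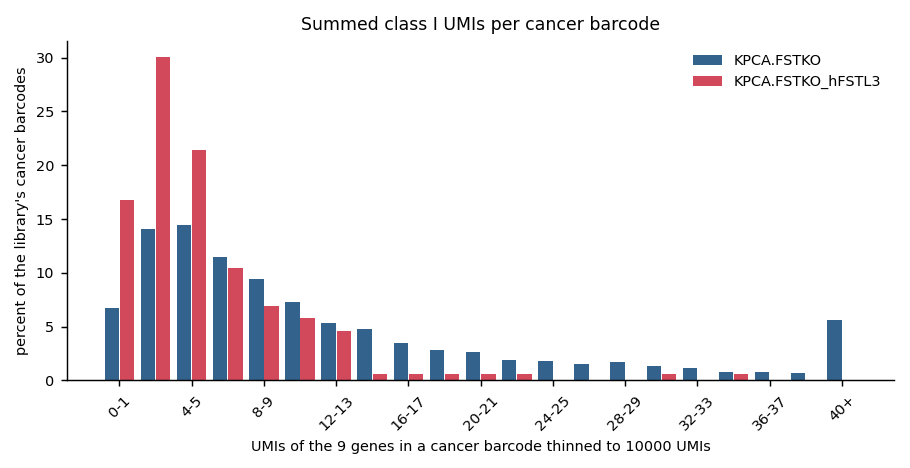
Share of each library's cancer barcodes, in percent, by the summed UMIs of the 9 genes after thinning to 10000 UMIs, in steps of 2 UMIs with the last bar for 40 or more. KPCA.FSTKO (blue) reaches far to the right with 5.62% of barcodes at 40 or more, and KPCA.FSTKO_hFSTL3 (red) has its highest bar, 30.1%, at 2 to 3.

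The variance over mean, which is 1 for Poisson counts and grows with the mean where barcodes differ, was 7.48 for H2-K1, 6.67 for H2-D1, 5.47 for B2m and 3.70 for Psmb8 in KPCA.FSTKO, and 2.47, 2.40, 2.34 and 1.36 in KPCA.FSTKO_hFSTL3. In KPCA.FSTKO it was 2.01 for Psmb9 and 1.56 for Tap1, both at a mean of 0.116 UMIs, and 1.24 for Tapbp, 1.21 for Tap2 and 1.26 for Nlrc5, at means of 0.462, 0.137 and 0.0502. H2-K1 was without a UMI in 36.2% of KPCA.FSTKO barcodes, where a Poisson spread around its mean gives 7.67%, and Psmb8 in 71.6% against 52.7%. The highest barcode held 65 UMIs of H2-K1, 57 of H2-D1, 50 of B2m and 16 of Psmb8. Since the measure follows the mean, the genes are not ranked by it.

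H2-K1, H2-D1, B2m and Psmb8 varied together over the KPCA.FSTKO barcodes, with r of 0.37 to 0.64. Pearson correlations of log2(thinned UMIs + 1) were above 0 for 36 of 36 pairs in KPCA.FSTKO, from 0.08 for Tap2 with Tapbp to 0.64 for H2-K1 with H2-D1, with a mean of 0.25. H2-D1 with B2m reached 0.61, H2-K1 with B2m 0.55, H2-D1 with Psmb8 0.48 and Psmb8 with Psmb9 0.41. Pairs of the sparse genes Tap1, Tap2, Tapbp and Nlrc5 lay between 0.08 and 0.15, too weak at these counts to be read. They are among the 36, and the share above 0 among pairs of other genes was not computed. In the 173 KPCA.FSTKO_hFSTL3 barcodes 26 of 36 pairs were above 0 with a mean of 0.15, and the strongest were Psmb8 with Psmb9 at 0.52 and Tap1 with Psmb9 at 0.43, both on 2 barcodes with a Psmb9 UMI, then H2-D1 with B2m at 0.40. The mean in KPCA.FSTKO moved with depth, from 0.20 at 5000 to 0.32 at 20000 UMIs, so the 2 libraries' values at different mean counts are not compared.

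**Figure D5:**
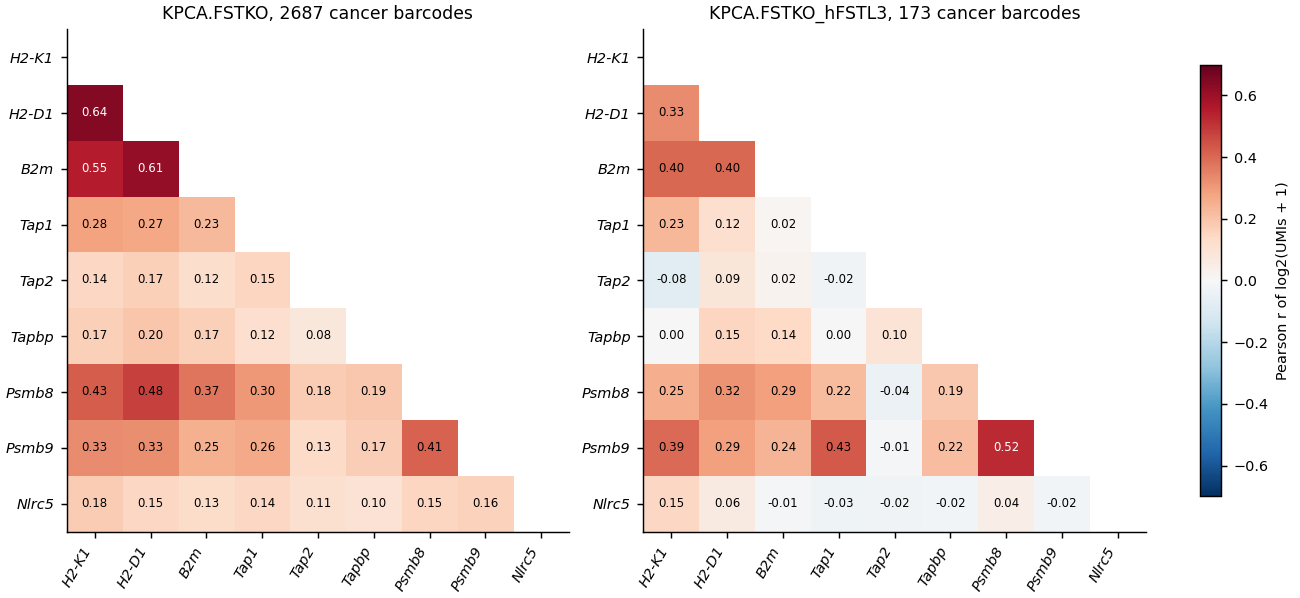
Pearson r of log2(UMIs + 1) for each pair of the 9 genes over cancer barcodes thinned to 10000 UMIs, in KPCA.FSTKO (left) and KPCA.FSTKO_hFSTL3 (right), red above and blue below 0. The darkest cells on the left join H2-K1, H2-D1 and B2m, at 0.55 to 0.64.

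In KPCA.FSTKO, cancer barcodes that held a UMI of the sparse members Psmb9 or Nlrc5 held more of the other members. In the 211 KPCA.FSTKO cancer barcodes with a thinned Psmb9 UMI the mean H2-K1 count was 7.63, against 2.14 in the 2476 without, a ratio of 3.57. The ratio was 5.89 for Psmb8, 2.99 for H2-D1 and 2.25 for B2m. In the 118 barcodes with an Nlrc5 UMI it was 3.30 for Psmb8, 2.89 for H2-K1, 2.23 for H2-D1 and 1.85 for B2m. Ratios for genes outside the set were not computed. In KPCA.FSTKO_hFSTL3 only 2 barcodes held a Psmb9 UMI and 5 an Nlrc5 UMI. Some ratios there were above 1 and others 0, too few barcodes to be read.

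The summed class I UMIs of a KPCA.FSTKO cancer barcode had Pearson r of -0.07 with its depth before thinning, -0.01 with its mitochondrial share, 0.05 with its leukocyte RNA, 0.01 with its macrophage markers and -0.06 with its cancer markers. Over the 173 KPCA.FSTKO_hFSTL3 barcodes the same r were -0.04, -0.15, 0.14, 0.13 and -0.06. The gates capped leukocyte and macrophage marker UMIs and set a minimum of cancer ones, so these r cover a limited range. Over 9822 other genes found in at least 5% of the thinned KPCA.FSTKO cancer barcodes, the r with the class I sum had a median of -0.01. Its 99th percentile was 0.14, and 20 genes passed 0.2. The 10 highest were Ifitm3 (0.39), Ifitm1 (0.35), Bst2 (0.33), Cd63 (0.30), Iigp1 (0.28), Tmem176a (0.26), Gbp2 (0.26), Pcolce (0.25), C3 (0.25) and Zbp1 (0.24). Ifitm3 and Ifitm1 are interferon-induced membrane proteins, Bst2 is tetherin, Iigp1 and Gbp2 are interferon-induced GTPases, Cd63 is a tetraspanin of late endosomes, C3 is the central complement component and Zbp1 senses nucleic acid. In KPCA.FSTKO_hFSTL3 the same genes had r of 0.27, -0.05, 0.30, 0.15, 0.25, 0.18, 0.33, 0.13, 0.12 and 0.38 in that order, over 173 barcodes.

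These companions were picked by r and detection in KPCA.FSTKO alone, which can favour genes with more UMIs there. Not every one of them was lower in KPCA.FSTKO_hFSTL3 cancer barcodes, and how many were lower is no result about them. Ifitm1 stood at 421 and 115 CPM (log2 ratio -1.87), C3 at 35.6 and 10.6 (-1.74) and Iigp1 at 21.2 and 9.46 (-1.16). All of these were at least 2-fold lower, against 6.69% of all genes tested. Ifitm3 stood at 839 and 872 CPM (0.06), Cd63 at 808 and 843 (0.06) and Zbp1 at 11.5 and 11.4 (-0.02), and Bst2, Gbp2, Tmem176a and Pcolce lay between -0.93 and -0.41.

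By list, the median r with the class I sum in KPCA.FSTKO was 0.23 for 7 interferon-induced genes found in enough barcodes, 0.20 for the 3 immunoproteasome and activator genes and 0.19 for 3 other class I heavy chains. It was 0.07 for 5 peptide loading and trimming genes, 0.09 for 3 constitutive proteasome subunits, 0.10 for 2 class II genes, 0.05 for 12 interferon signalling genes and -0.04 for 4 cycling genes. Of the signalling genes Ifngr1 stood at 0.18, and of the cycling genes Mki67 stood at -0.05. The 7 interferon-induced genes ranged from -0.02 (Ifit2) to 0.33 (Bst2). Bst2, Iigp1 and Gbp2 among them are also companions named above. Of the 17 interferon-induced genes listed, those found in under 5% of barcodes were left out of that median. Their r ranged from 0.01 (Rsad2) to 0.20 (Gbp3), all below 0.23, with Isg15 at 0.08, Ifit1 at 0.06 and Ifit3 at 0.04.

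Shares of barcodes with a UMI followed the levels. At full depth H2-K1 had a UMI in 76.5% (75.0% to 78.0%) of KPCA.FSTKO and 57.5% (49.9% to 64.8%) of KPCA.FSTKO_hFSTL3 cancer barcodes, although the latter were deeper. Thinned to 2000 UMIs, which left out 132 and 1 cancer barcodes, H2-K1 was found in 27.3% (25.7% to 28.9%) and 7.78% (4.32% to 12.7%) of cancer barcodes, 71.1% (67.8% to 74.2%) and 62.2% (52.8% to 70.9%) of macrophages and 3.13% (0.38% to 10.8%) of KPCA.FSTKO erythroid barcodes, the class with least of it and a median depth of 4276 UMIs. B2m was found in 51.1% (49.3% to 52.8%) and 37.8% (30.7% to 45.3%) of thinned cancer barcodes and in 88.4% and 87.4% of macrophages. Psmb8 was found in 8.80% (7.83% to 9.85%) and 1.11% (0.13% to 3.96%) of cancer barcodes and in 31.7% and 32.8% of macrophages. The 1.11% lay within the interval of the erythroid share of 3.13%, so that share alone is not told from the erythroid one. Over all UMIs of the class Psmb8 stood at 5.77% (4.57% to 7.21%) of its macrophage level in KPCA.FSTKO_hFSTL3 cancer barcodes. The 7 leukocyte genes, held low there in part by the gates, stood at 0.256% to 0.447%. The erythroid barcodes are those of KPCA.FSTKO, 64 after thinning, and haemoglobin took 81.7% of the UMIs of that class. Their shares are thus no direct measure of background in cancer barcodes. The H2-K1 share of 7.78% also lay within their interval, while the B2m share of 37.8% lay above the erythroid 18.8% (10.1% to 30.5%). Psmb9 was found in 2.22% and in 0 of 180 cancer barcodes, where the interval reaches 2.03%. Tapbp was found in 7.58% (6.67% to 8.56%) and 6.67% (3.49% to 11.4%). For both Psmb9 and Tapbp the erythroid share was 1.56% (0.04% to 8.40%), and these cancer shares lay within its interval. All 9 genes were found in a smaller share of cancer than of macrophage barcodes in both libraries, but in KPCA.FSTKO_hFSTL3 the intervals overlapped for Tap1 (1 of 180 and 3 of 119 barcodes), Tap2 (0 of 180, up to 2.03%, and 2 of 119) and Nlrc5 (0 of 180 and 5 of 119). How many of all genes were found in a smaller share of cancer barcodes was not computed.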

How the data were processed

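The authors used a 3-prime droplet kit of 10x Genomics and aligned reads to mm10 with Cell Ranger (3.1.0 per the labels, 7.2.0 per the file headers). The deposited values are raw UMI counts per gene and barcode. No scaling had been done, and barcodes outside the study's limits were still present, so a mitochondrial share under 20%, more than 200 and fewer than 8000 genes were asked for here. No doublet caller was run.

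The 9 genes, the lists and the markers were chosen with earlier results of these data known, and the gate thresholds after marker values were seen. A barcode entered a class with a minimum of marker UMIs per 10000 (20 for cancer, 50 for macrophages and neutrophils, 100 for stromal, 1000 for erythroid, 20 for endothelial and monocytes, 10 for the rest), at least 3 different markers (4 for dendritic) and under 20 marker UMIs per 10000 of every unrelated list. Samples were grouped by title. UMIs were summed over a class and divided by its total. With 1 library a genotype no test was made, and genes at least 2-fold apart were counted among those with at least 100 UMIs over both groups. Genes named were the 9, the listed genes and the 10 genes most correlated with the class I sum. Thinning used 2000 UMIs for shares and 10000 for correlations. Counting was tested on simulated Poisson counts, which hold no spread between barcodes, and thinning on KPCA.FSTKO_hFSTL3 cancer barcodes. Alternatives changed gates, filters, the summary over barcodes, depth and scaling (TMM, edgeR 4.0.16). Sums and intervals were computed in Python 3.11.15 (scipy 1.17.1, numpy 2.4.6). 1 gene of the interferon signalling list and 1 allele of the line are not reported here by name.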

Additional observations from a re-analysis of the deposited data

Results flagged for a closer look

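In 4 genes the difference between the libraries had opposite signs in cancer and macrophage barcodes, a difference that was not tested since each side is 1 library. The share of all genes with opposite signs was not computed, so the count of 4 is no result about the set. The log2 ratio between the libraries, KPCA.FSTKO_hFSTL3 on top, in cancer minus that in macrophage barcodes was -2.75 for Psmb9 (-2.50 and 0.25), -2.30 for Tap1 (-2.22 and 0.09), -1.74 for Tap2 (-1.65 and 0.09) and -1.25 for Nlrc5 (-0.94 and 0.31). The macrophage interval held 0 for Tap1, Tap2 and Nlrc5 and reached from 0.01 to 0.50 for Psmb9, and with TMM scaling the macrophage values of Tap1 and Tap2 turned to -0.05 each.

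Barcodes of no class, which no comparison used, also held class I UMIs. The 9 genes summed stood there at 1582 CPM (1567 to 1597) in KPCA.FSTKO, between the 1243 of its cancer and the 3661 of its macrophage barcodes. In KPCA.FSTKO_hFSTL3 they stood at 964 CPM (956 to 972), between 499.6 and 3163, in barcodes that held cancer, macrophage and acinar markers together.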

How the results depend on the processing

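No paired analysis was possible because each genotype has 1 library, and for the same reason no library could be left out. Over the alternatives for levels, the count of genes at least 2-fold lower in cancer than in macrophage barcodes stayed at 9 in KPCA.FSTKO, but for the gate named below, and was 6 to 8 in KPCA.FSTKO_hFSTL3, where fewer genes kept enough UMIs. The count at least 2-fold lower in KPCA.FSTKO_hFSTL3 cancer barcodes was 6 or 7, and that in macrophages stayed at 0. Nlrc5 was added where it was 7 (no barcode filters, the mean over barcodes, the highest 5% of barcodes of a gene left out, no leukocyte UMIs, TMM). Where the highest barcodes or those with leukocyte UMIs were left out, Tap1, Psmb9 and Nlrc5 had 0 UMIs in KPCA.FSTKO_hFSTL3 and were still counted as lower. Psmb9 entered the KPCA.FSTKO_hFSTL3 count against macrophages in the same way. With the highest barcodes left out this was fixed in advance, since only 10, 7 and 9 of 181 barcodes held a UMI of them. These settings are no check of Tap1, Psmb9 and Nlrc5. TMM scaling moved every log2 ratio between the libraries by -0.17 in cancer and -0.14 in macrophage barcodes, and Tapbp in cancer stood at -0.03 with it, -0.04 without barcode filters and -0.16 in barcodes without leukocyte UMIs. The mean pairwise r of KPCA.FSTKO moved from 0.25 to 0.32 at 20000 UMIs, and that of KPCA.FSTKO_hFSTL3 from 0.15 to 0.079 at 5000 UMIs, 0.25 at 20000 UMIs and 0.24 in the 25 barcodes without leukocyte UMIs. The cause was not tested. Asking for no marker of another class left 8 cancer barcodes in KPCA.FSTKO and 0 in KPCA.FSTKO_hFSTL3 and was not run. With at most 1 such marker, 47 cancer and 18 macrophage barcodes of KPCA.FSTKO were left and 0 of KPCA.FSTKO_hFSTL3, and 3 genes (H2-K1, H2-D1 and B2m), all that kept 100 UMIs, were at least 2-fold lower. Besides, at most 5 such markers, a limit of 10 marker UMIs per 10000 and the depth limit of 30000 UMIs were added after the data were seen, and the first left under 10 barcodes of a class in KPCA.FSTKO_hFSTL3, the fewest accepted there, and gave values for KPCA.FSTKO alone. Of 303 values of single genes under an alternative, 243 stayed within the counting interval and 60 moved, and none whose interval excluded 0 changed sign. A further 12 had no value, since 0 UMIs were left in 1 group. Depth limits Psmb9, Tap1, Tap2 and Nlrc5 in KPCA.FSTKO_hFSTL3 cancer barcodes, each on 17 to 33 UMIs.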

Other observations

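Some host classes were too small for a comparison. The 17 dendritic barcodes of KPCA.FSTKO held Psmb8 at 1030 CPM (895 to 1179), Psmb9 at 451 (364 to 553) and Tap1 at 181 (128 to 250), each above the level in every larger class of that library, while their H2-K1 at 799 CPM (681 to 932) was near that of macrophages. The 39 monocyte barcodes held H2-K1 at 649 CPM (585 to 718) and Psmb8 at 195 (161 to 234), and the 12 B barcodes held B2m at 1309 CPM (1006 to 1674). In KPCA.FSTKO_hFSTL3 the 5 T and NK barcodes held H2-K1 at 1939 CPM (1608 to 2319) and Psmb8 at 857 (642 to 1120), and the 8 endothelial barcodes held H2-K1 at 218 CPM (148 to 309).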
